A study of Homo sapiens and Mus musculus with 25 samples.

Results

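The human HOX genes are the 39 protein-coding genes whose symbol is HOXA, HOXB, HOXC or HOXD followed by digits, and they were chosen by that symbol alone from the 19962 protein-coding genes of GENCODE release 44 on the autosomes and the X chromosome (genome build hg38). They lie in 4 clusters: 11 genes in HOXA (chr7:27092993-27200091), 10 in HOXB (chr17:48528526-48728750), 9 in HOXC (chr12:53938831-54056030) and 9 in HOXD (chr2:176092721-176190907). HOXA and HOXB are transcribed from the minus strand, and HOXC and HOXD from the plus strand. The clusters span 107099, 200225, 117200 and 98187 bases.

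HOX genes encode homeodomain transcription factors that give cells their position along the body axis, and some of them act in blood stem and progenitor cells. Within a cluster the genes are numbered by paralogue group from the 3′ end to the 5′ end, and genes that share a number are paralogues. HOX chromatin is a standard case of opposed systems. The Polycomb complexes place trimethylation on lysine 27 of histone H3 (H3K27me3) over silent HOX genes, and Trithorax-type methyltransferases, among them KMT2A, methylate lysine 4 of the same histone at active ones. Of the methylated forms of lysine 4, the monomethylated form (H3K4me1) is best known from enhancers, the trimethylated form (H3K4me3) from active promoters, and the dimethylated form (H3K4me2) from both.

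The chromatin came from K562, a human leukaemia cell line with erythroid features, grown in culture with no treatment named in the labels. Immunoprecipitation was calibrated with barcoded nucleosome standards added to the nuclei (ICeChIP-seq), and each antibody gave 1 library and 1 deposited list of peaks. The groups are 5 antibodies sold against H3K4me1, 4 against H3K4me2, 8 against H3K4me3, 1 against H3K9me3 and 1 against H3K27me3, 19 lists in all. A further 3 lists, corrected H3K4me1, H3K4me2 and H3K4me3, were computed by the authors from Abcam ab8895, ab7766, ab12209 and ab8580 as signal-corrected lists, by steps not given in the sources used here, and they are not replicates. No cell line other than K562 and no perturbed state enters the comparisons, and the labels name no separate cultures, so a spread or p-value below measures the spread between antibodies on chromatin of 1 line, which may be technical.

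The lists differ widely in how much of the genome they cover, and this bears on every count. The H3K4me1 lists cover 723 to 1593 Mb of the genome, the H3K4me2 lists 111 to 1502 Mb, and 7 of the 8 H3K4me3 lists 18.7 to 165 Mb, whereas Abcam ab8580 covers 769 Mb. EMD Millipore 07-473 is the widest of the other H3K4me3 lists and EMD Millipore 05-1338 the narrowest of the H3K4me2 lists. The H3K27me3 list covers 2029 Mb, and the H3K9me3 list 2834 Mb with a peak at 98.7% of coding promoters. All 39 HOX promoters lie wholly under H3K9me3 peaks, so that list does not separate them. Of 8 markers of erythroleukaemia cells, 7 carried H3K4me3 at the promoter in 5 or more of the 8 lists. None of 7 markers of lymphoid, pluripotent or hepatic cells did. An H3K27me3 peak lay at 6 of the 8 erythroleukaemia markers and at all 7 of the others.

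A promoter is here the window of 1 kb on either side of the canonical transcription start site, and its cover is the percent of that window under a peak of a list. The promoter sequences show how unlike these windows can be in the CpG dinucleotides to which KMT2-type and Polycomb complexes are known to be drawn. The RefSeq promoter table (GRCh38.p14) held entries for 20 of the 39 genes. In the table's 35116 promoters, the 250 bases before the start held a median of 11 CpG, and 93.9% held at least 1. Shown 5′ to 3′ on the gene's own strand are those 250 bases for 4 genes whose stretch holds no annotated exon, with each CG in capitals: HOXA13, with the most CpG of the HOX stretches found, HOXB1, with few, and HOXA9 and HOXD11, which the results below return to. HOXA13 (chr7:27200092-27200341, minus strand) holds 40 CpG, HOXA9 (chr7:27165538-27165787, minus strand) 20, HOXB1 (chr17:48531012-48531261, minus strand) 7 and HOXD11 (chr2:176107030-176107279, plus strand) 23.
HOXA13: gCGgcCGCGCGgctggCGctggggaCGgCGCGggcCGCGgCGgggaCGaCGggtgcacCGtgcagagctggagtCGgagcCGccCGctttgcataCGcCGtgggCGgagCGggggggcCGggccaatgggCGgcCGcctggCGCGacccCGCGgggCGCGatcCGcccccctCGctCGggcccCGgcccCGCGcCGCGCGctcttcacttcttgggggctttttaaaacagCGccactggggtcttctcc
HOXA9: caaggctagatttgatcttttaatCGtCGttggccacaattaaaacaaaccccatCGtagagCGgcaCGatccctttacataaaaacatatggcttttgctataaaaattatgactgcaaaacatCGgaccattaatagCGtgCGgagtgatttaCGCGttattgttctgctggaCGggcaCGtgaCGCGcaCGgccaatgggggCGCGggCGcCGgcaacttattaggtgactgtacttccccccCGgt
HOXB1: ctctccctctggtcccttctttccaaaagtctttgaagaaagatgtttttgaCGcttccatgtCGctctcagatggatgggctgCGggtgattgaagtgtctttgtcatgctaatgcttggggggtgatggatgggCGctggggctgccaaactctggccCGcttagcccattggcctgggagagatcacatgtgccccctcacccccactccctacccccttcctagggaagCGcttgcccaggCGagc
HOXD11: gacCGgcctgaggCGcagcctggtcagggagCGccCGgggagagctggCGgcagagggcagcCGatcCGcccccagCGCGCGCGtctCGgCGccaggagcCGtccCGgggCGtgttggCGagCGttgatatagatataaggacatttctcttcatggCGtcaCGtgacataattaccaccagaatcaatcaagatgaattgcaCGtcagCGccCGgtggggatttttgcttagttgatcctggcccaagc
All 4 of these promoters carried an H3K27me3 peak, and none had an H3K4me3 peak in more than 2 of 8 lists.

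Over the 2001-base windows, HOX promoters held 35 (HOXB3) to 219 (HOXD8) CpG with a median of 120, against a median of 96 over all coding promoters, and 26 of 39 lay above that median. The 8 HOX promoters with a peak in at least 5 H3K4me3 lists had a median of 121.5 CpG (41 to 148) and the other 31 a median of 120 (35 to 219). HOXC6, with a peak in 7 lists, held 41 CpG, and HOXD11, with a peak in 1, held 194. Across the 39 genes the number of H3K4me3 lists had a Spearman rho of -0.12 and a Pearson r of -0.19 with CpG count, a description over genes that share the same 8 libraries.

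**Figure D1:**
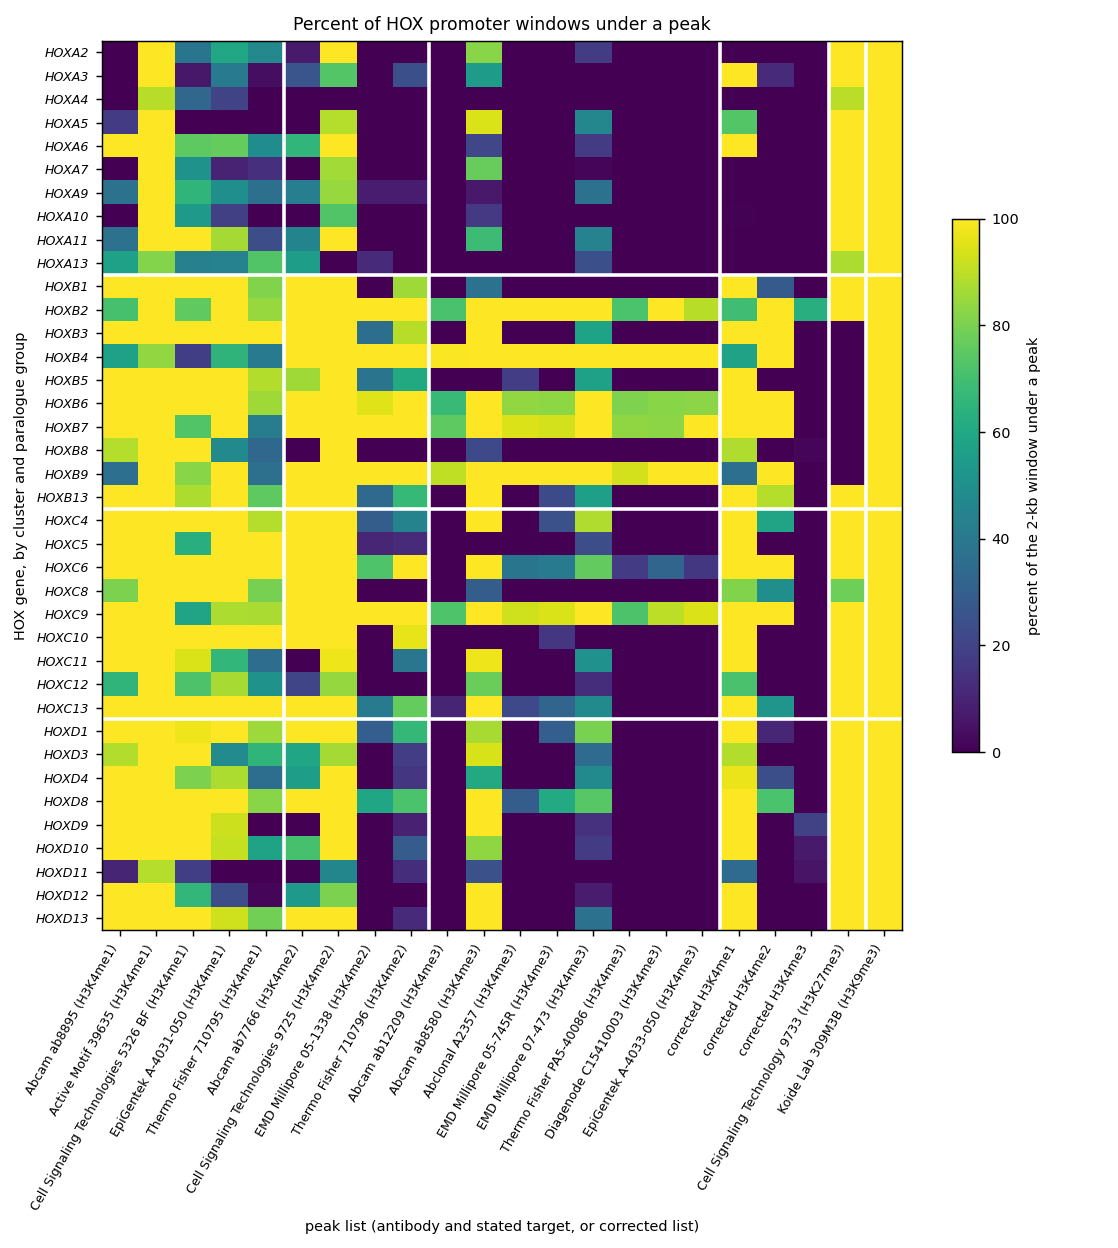
Percent of HOX promoter windows (rows, 38 genes by cluster and paralogue group) under a peak in each of the 22 lists (columns), from 0 (dark) to 100 (yellow). HOXB2, HOXB4, HOXB6, HOXB7, HOXB9 and HOXC9 are bright across all 8 H3K4me3 columns, and HOXB3 to HOXB9 are dark in the H3K27me3 column.

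H3K4me3 was found at few HOX promoters. A promoter peak was present in at least 5 of the 8 lists for 8 of 39 HOX genes, against a background of 52.9% of all coding genes. They were HOXB2, HOXB4, HOXB6, HOXB7, HOXB9 and HOXC9 in all 8 lists, HOXC6 in 7 and HOXC13 in 5. HOXD8, in 4 lists, lay just outside. The first 6 were also the 6 HOX genes with a peak in all 17 H3K4 lists, against 27.9% of coding genes. No HOXA and no HOXD gene was among the 8. By cluster they were 0 of 11 HOXA genes, 5 of 10 HOXB, 3 of 9 HOXC and 0 of 9 HOXD, where 52.9%, 53.5%, 56.3% and 54.3% of the coding genes of chromosomes 7, 17, 12 and 2 had such peaks. At the other end, 24 HOX promoters had H3K4me3 peaks in no list but Abcam ab8580 or EMD Millipore 07-473, as did 22.4% of all coding promoters, and HOXA4 had none in any of the 8. The number of HOX promoters with a peak was 33 to 39 in the 5 H3K4me1 lists, 18 to 37 in the 4 H3K4me2 lists and 7 to 34 in the 8 H3K4me3 lists, where the median was 8.5 and the mean without Abcam ab8580 was 11.6 ± 8.44 (SD, n = 7). As shares of the 39 these are 84.6% to 100%, 46.2% to 94.9% and 17.9% to 87.2%, and the same lists had peaks at 70.7% to 84.2%, 68.0% to 85.1% and 33.5% to 75.3% of all coding promoters.

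H3K27me3 was found at most HOX promoters, as at most coding promoters. Its single list had a peak at 32 of 39 HOX promoters (82.1%), against 73.9% of coding promoters. It covered 29 windows whole, against 62.8%. The 7 promoters without a peak were HOXB3, HOXB4, HOXB5, HOXB6, HOXB7, HOXB8 and HOXB9, a run of neighbours. The share of coding promoters with an H3K27me3 peak differed by chromosome, and was 98.5% on chromosome 7, 59.0% on chromosome 17, 74.7% on chromosome 12 and 69.1% on chromosome 2. The 11 HOXA promoters with a peak thus lie on a chromosome where nearly every coding promoter has 1.

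**Figure D2:**
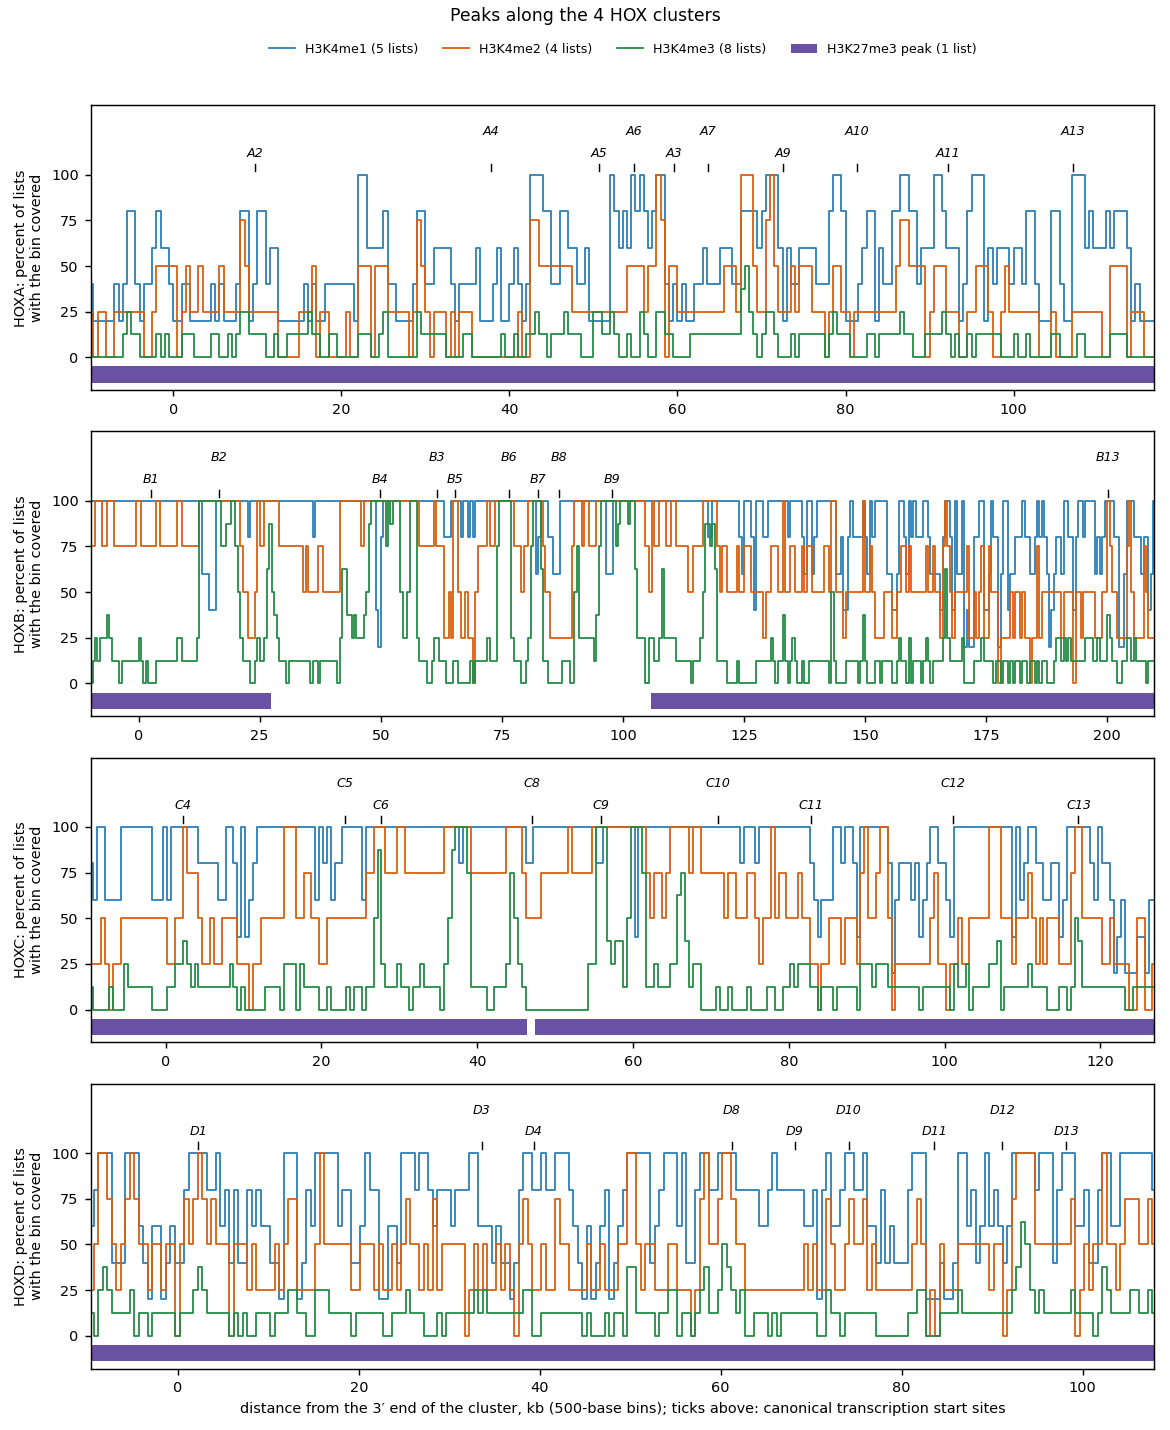
Percent of the 5 H3K4me1, 4 H3K4me2 and 8 H3K4me3 lists that cover each 500-base bin of a cluster and 10 kb on either side, against distance from its 3′ end in kb, with H3K27me3 peaks as a bar below and canonical start sites of 38 genes as ticks. The H3K27me3 bar is unbroken over HOXD and open over HOXB3 to HOXB9, where the H3K4me3 line reaches all 8 lists.

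The HOXB cluster is the one with a wide stretch free of H3K27me3. One gap of 78116 bases (chr17:48556091-48634206) held the canonical start sites of 7 genes. From its 3′ edge HOXB4 lay 22259 bases inside, HOXB3 34150, HOXB5 37688, HOXB6 48895, HOXB7 54926, HOXB8 59201 and HOXB9 70267, which left HOXB9 7848 bases from the 5′ edge. HOXB2 lay 10982 bases outside the 3′ edge and HOXB13 94544 bases outside the 5′ edge. The other 3 clusters had H3K27me3 over 99.6% (HOXA), 99.6% (HOXC) and 100% (HOXD) of their length. Their gaps were 205 and 246 bases wide in HOXA and 439 bases wide in HOXC (chr12:54008711-54009149), and the HOXC gap held the start site of HOXC8. With 1 H3K27me3 list there is no replicate of these edges.

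Within the gap, all 3 methylated forms of lysine 4 covered more of the sequence than in the rest of HOXB, in every antibody list. H3K4me3 peaks covered 21.6% to 80.9% of the gap (median 32.5) and 6.65% to 75.5% of the rest (median 11.2), higher in the gap in 8 of 8 lists. The means were 38.7% ± 19.5 and 19.7% ± 23.4 (SD, n = 8), or 32.7% ± 10.2 and 11.7% ± 6.75 (SD, n = 7) without Abcam ab8580. H3K4me2 covered 79.1% ± 21.2 of the gap and 61.8% ± 35.1 of the rest (SD, n = 4), higher in the gap in 4 of 4. H3K4me1 covered 95.2% ± 4.24 and 86.0% ± 11.1 (SD, n = 5), higher in 5 of 5. The lists of both stretches come from the same libraries, and the gap was chosen from the H3K27me3 list alone. The stretches also differ in density of promoters. The gap held 7 canonical HOX starts, and only HOXB1, HOXB2 and HOXB13 start in the rest. No canonical HOX start lies in the 94544 bases between the gap and HOXB13. The part of promoter density in the cover was not tested. In the corrected lists H3K4me2 covered 66.1% of the gap and 34.1% of the rest. Corrected H3K4me3 covered 0.53% of the gap and 4.74% of the rest. Of its 5782 bases in the rest, 4314 lay in a single peak at HOXB2.

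The genes inside the gap did not look alike. HOXB4, HOXB6, HOXB7 and HOXB9 had H3K4me3 promoter peaks in all 8 lists, and HOXB3, HOXB5 and HOXB8, which lie between them, had them in 2, 2 and 1.

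HOXB4, a paralogue group 4 factor known for its part in expanding blood stem cells, had H3K4me3 over 99.6% to 100% of its promoter in the 8 lists (mean 99.9% ± 0.16, SD). All 4 H3K4me2 lists covered it whole. H3K4me1 covered 57.4% with Abcam ab8895, 84.0% with Active Motif 39635, 18.5% with Cell Signaling Technologies 5326 BF, 65.1% with EpiGentek A-4031-050 and 41.2% with Thermo Fisher 710795. Every H3K4me3 list thus lay above every H3K4me1 list. HOXB4 was the HOX gene with the widest H3K4me3 excess, -46.7 percentage points for H3K4me1 minus H3K4me3, and the one such gene to pass the test across all genes described below (exact permutation, adjusted p = 0.0105). The excess kept its sign but not the call over 2.5 kb on either side of the start (-13.5 points, adjusted p = 0.073, exact permutation), over the gene body (-10.1, adjusted p = 0.182), without the peaks valued below the median of their list, where lists carry values (-34.3, adjusted p = 0.2), when scored by whether a peak covered 0.5 of the window or more (-40.0, adjusted p = 0.533) and with libraries of 8 amplification cycles (-46.8, adjusted p = 0.0506). Scored as peak present or absent, the difference was 0.

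HOXB9, a posterior factor at the 5′ end of the run, had H3K4me3 over 90.5% to 100% of its promoter in the 8 lists and H3K4me2 over 100% in all 4. H3K4me1 covered 36.6% with Abcam ab8895, 100% with Active Motif 39635, 82.1% with Cell Signaling Technologies 5326 BF, 100% with EpiGentek A-4031-050 and 36.8% with Thermo Fisher 710795. The 2 groups of antibodies overlapped, and the difference of -26.9 points was not past the threshold (exact permutation, adjusted p = 0.124).

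HOXB3, whose canonical start lies between those of HOXB4 and HOXB5, had H3K4me1 over 100% of its promoter in all 5 lists. H3K4me2 covered 100% with Abcam ab7766 and Cell Signaling Technologies 9725, 36.1% with EMD Millipore 05-1338 and 89.4% with Thermo Fisher 710796. H3K4me3 was listed at 100% with Abcam ab8580 and 58.1% with EMD Millipore 07-473, and in none of the other 6. HOXB3 is a gene of several start sites, and some of its annotated transcripts begin in the H3K4me3 stretches at HOXB4 and HOXB6.

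HOXB8, a factor expressed in myeloid progenitors, had the fewest H3K4 lists of the cluster, 7 of 17. H3K4me1 covered 89.0%, 100%, 100%, 47.7% and 33.4% in the order of antibodies given for HOXB4. H3K4me2 was listed by Cell Signaling Technologies 9725 alone, and H3K4me3 by Abcam ab8580 alone, at 22.1%. HOXB8 therefore had neither H3K27me3 nor, in 7 of 8 lists, H3K4me3. A corrected H3K4me3 peak of 205 bases touched 1.5% of its window.

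Outside the gap, HOXB2 lay under peaks of both H3K27me3 and H3K4me3, which is not particular to HOX genes. MEIS1 and the cluster neighbours SKAP2, SMUG1, CALCOCO1 and MTX2 also had H3K4me3 in all 8 lists with H3K27me3 over 100%. HOXB2, an anterior hindbrain factor, had H3K27me3 over its whole promoter and H3K4me3 over 71.4% to 100% of it in the 8 lists (mean 91.5% ± 12.9, SD). H3K4me2 covered it whole in all 4 lists, and H3K4me1 covered 70.7%, 100%, 75.5%, 100% and 84.7% in the antibody order of HOXB4. The H3K27me3 edge is 10982 bases away and the list does not say whether the marks sit on the same alleles or cells. HOXB2 was also the HOX gene with a broad corrected H3K4me3 peak at its start: 4314 bases (chr17:48541055-48545368), 63.0% of the window, with an authors' value of 60.2 that was above 99.5% of that list.

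HOXB1, the most 3′ gene of the cluster, had H3K27me3 over its whole promoter. H3K4me1 covered it whole in 4 of 5 lists and to 81.1% with Thermo Fisher 710795. H3K4me2 covered 100%, 100%, 0% and 85.6% in the order of antibodies given for HOXB3, and H3K4me3 was listed by Abcam ab8580 alone, at 37.7%. HOXB13, a prostate and hindgut factor set far from the other genes of the cluster, had H3K27me3 over 100% as well. Its H3K4me3 cover was 100% with Abcam ab8580, 56.5% with EMD Millipore 07-473, 22.5% with EMD Millipore 05-745R and 0 in the other 5 lists, and H3K4me1 covered 75.4% to 100% in the 5 lists.

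HOXC carried H3K4me3 at 3 promoters under H3K27me3. HOXC9, a posterior factor, had H3K4me3 over 72.0% to 100% of its promoter in the 8 lists (mean 89.6% ± 11.3, SD) and H3K4me2 over 100% in all 4. H3K4me1 covered 100%, 100%, 58.5%, 87.8% and 87.2% in the antibody order of HOXB4. The corresponding H3K4me1 minus H3K4me3 difference, -2.89 points, was smaller than either spread. Its H3K27me3 cover was 100%.

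HOXC6, transcribed from several starts, had H3K4me3 in 7 lists at 16.0% to 100% of the promoter and at 0 with Abcam ab12209 (median over 8 lists 35.8%). H3K4me1 covered all of it in 5 of 5 lists. HOXC13, the most 5′ gene and a regulator of hair and nail keratin genes, had a median H3K4me3 cover of 16.2% (0 to 100, 8 lists) and H3K4me1 over 100% in 5 of 5. At both promoters, in contrast to HOXC9, most H3K4me3 lists covered only part of the window or none.

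HOXC8 and HOXC12 had the fewest lists in the cluster under the rule used to pick genes. HOXC8, a thoracic-level factor, had H3K4me1 over 79.6% to 100% in 5 lists, H3K4me2 over 100% in Abcam ab7766 and Cell Signaling Technologies 9725 and 0 in the other 2, and H3K4me3 in Abcam ab8580 alone at 29.4%. HOXC12 had H3K4me1 over 51.3% to 100% in 5 lists, and H3K4me3 over 77.4% with Abcam ab8580 and 13.1% with EMD Millipore 07-473. Both had H3K27me3, over 78.1% of the HOXC8 window and 100% of the HOXC12 window.

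HOXA, the cluster known for its activity in many acute leukaemias with KMT2A fusions, had the lowest cover by H3K4 peaks in most lists. HOXA9 and HOXA11 had the most lists in it, 11 and 9 of 17. HOXA9, the leukaemia-linked member, had H3K4me1 over 37.3%, 100%, 65.3%, 49.7% and 37.1% of its promoter in the antibody order of HOXB4, and H3K4me2 over 42.7%, 84.7%, 7.85% and 7.95% in the order of HOXB3. Its H3K4me3 was 7.00% with Abcam ab8580, 37.5% with EMD Millipore 07-473 and 0 in 6 lists. HOXA11 had H3K4me3 over 68.4% and 44.5% with those same 2 antibodies and 0 in the other 6.

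HOXA4 had a peak in 4 of 17 lists, and no HOX gene had fewer. It had H3K4me1 over 89.3%, 33.1% and 20.4% in 3 lists, H3K4me2 over 0.30% in 1 and no H3K4me3. Of the 39 HOX genes, 7 had no corrected H3K4 peak of any kind in the window, and all were HOXA genes, HOXA4, HOXA9, HOXA11 and HOXA13 among them. Of all coding promoters 25% had none, and of those on chromosome 7 13.9%.

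HOXD had H3K4me3 peaks mainly in the wider lists. HOXD8 and HOXD1 had the most lists, 13 and 12 of 17. HOXD8 had H3K4me3 over 100% with Abcam ab8580, 74.0% with EMD Millipore 07-473, 61.0% with EMD Millipore 05-745R and 29.6% with Abclonal A2357, and 0 in the other 4. HOXD1 had it over 86.9%, 80.0% and 29.9% with the first 3 of those and 0 in the other 5. Their H3K4me1 cover was 82.1% to 100% and 85.4% to 100% in 5 lists.

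HOXD11 and HOXD9, factors of limb and urogenital patterning, had the fewest lists, 6 and 8 of 17. HOXD11 had H3K4me1 over 10.2%, 89.0% and 18.6% in 3 lists and 0 in 2, and H3K4me3 over 24.7% with Abcam ab8580 alone. HOXD9 had H3K4me1 over 92.2% to 100% in 4 lists and 0 with Thermo Fisher 710795, and H3K4me3 over 100% with Abcam ab8580 and 14.2% with EMD Millipore 07-473. HOXD10 had H3K4me1 over 57.7% to 100% in 5 lists and H3K4me3 over 83.3% and 17.6% with those same 2 antibodies. H3K27me3 covered all 9 HOXD promoters whole.

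The corrected lists held fewer HOX promoters with each further methyl group, and fewer of all coding promoters too. Those lists cover 1014, 320 and 20.2 Mb for H3K4me1, H3K4me2 and H3K4me3. Corrected H3K4me1 was present at 32 of 39 HOX promoters, against 71.4% of coding promoters: 4 of 11 in HOXA and all 28 others, 10 in HOXB, 9 in HOXC and 9 in HOXD. Corrected H3K4me2 was present at 17 of 39, against 55.1%: 1 in HOXA, 8 in HOXB, 5 in HOXC and 3 in HOXD. Corrected H3K4me3 was present at 5 of 39, against 18.1%: HOXB2 at 63.0% of the window, HOXD9 at 19.5%, HOXD10 at 7.25%, HOXD11 at 5.35% and HOXB8 at 1.5%. The last 4 rested on peaks of 205 to 541 bases with authors' values of 9.03 to 13.2, beside that list's median of 9.62 and the 60.2 of the HOXB2 peak. HOXB4, HOXB6, HOXB7, HOXB9 and HOXC9, with H3K4me3 in all 8 antibody lists, had corrected H3K4me2 over 100% of the window and no corrected H3K4me3. With a window of 2.5 kb the corrected H3K4me3 count was 12, against 21.5% of coding promoters, and with 0.5 kb it was 1, against 16.8%. A corrected H3K4me3 peak of 1737 bases with a value of 41.8 (chr12:53994741-53996477) lay instead over an upstream start of HOXC9. Of the 39 genes, 25 had both corrected H3K4me1 and H3K27me3 at the promoter, against 59.2% of coding promoters.

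**Figure D3:**
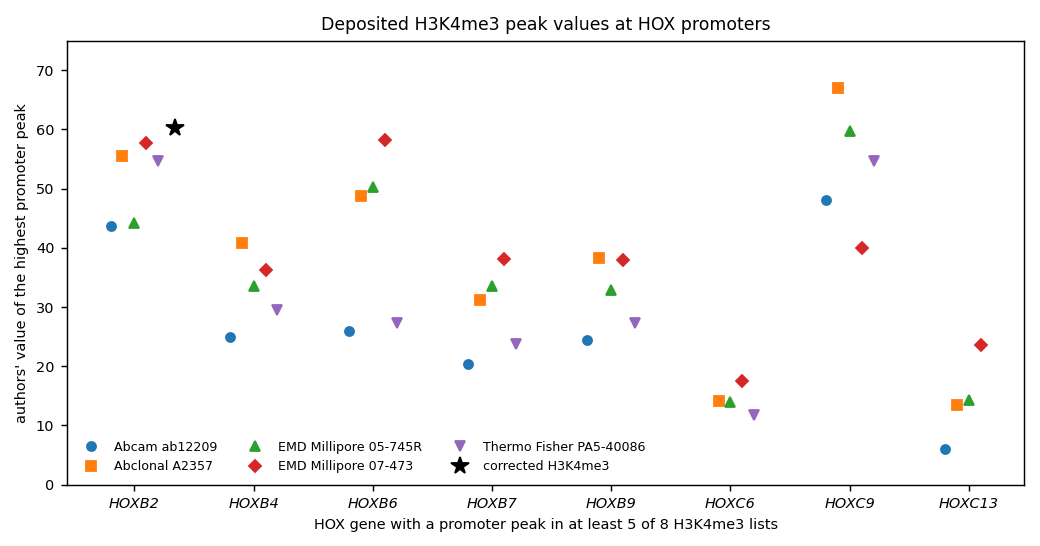
Authors' value of the highest H3K4me3 promoter peak for the 8 HOX genes found in at least 5 of 8 H3K4me3 lists, for the 5 antibody lists that carry values and for the corrected list (star, HOXB2 alone). HOXC9 and HOXB2 have the highest means, 53.9 and 51.2, and HOXC6 and HOXC13 sit near 14.3.

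Where the lists carry a value per peak, given by the authors on a scale that the sources used here do not define, the H3K4me3 promoters were graded. HOXC9 had 48.0 with Abcam ab12209, 67.0 with Abclonal A2357, 59.8 with EMD Millipore 05-745R, 39.99 with EMD Millipore 07-473 and 54.6 with Thermo Fisher PA5-40086, a mean of 53.9 ± 10.4 (SD, n = 5). HOXB2 had a mean of 51.2 ± 6.69, HOXB6 of 42.1 ± 14.6, HOXB4 of 33.0 ± 6.09, HOXB9 of 32.2 ± 6.20 and HOXB7 of 29.4 ± 7.28 (SD, n = 5 each). HOXC6 and HOXC13 had means of 14.3 ± 2.35 and 14.3 ± 7.18 over the 4 of 5 lists with a peak. The ranges of HOXC9 and HOXB2 overlapped, as did those of HOXB6 with every other gene of the 6, and each of the 6 overlapped its neighbour in this order. These ranges pool lists of unlike scale, with median values from 7.67 (EMD Millipore 07-473) to 27.3 (Thermo Fisher PA5-40086). Overlap therefore does not tell whether neighbours differed, and differences within a list were not tested. The lowest value of HOXC9, 39.99, was above the highest of HOXB7, 38.2, and the highest values of HOXC6 and HOXC13, 17.4 and 23.5, were below the lowest of HOXC9, HOXB2, HOXB4, HOXB6 and HOXB9. Median peak width differed between these 2 genes of like value. The HOXB2 peak was 8440 bases wide in the median of 8 lists (4481 to 12151). The HOXC9 peak was 1897.5 (1441 to 9145), and the ranges overlapped.

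Base by base, 28 stretches of the 4 clusters lay under peaks of at least 5 of the 8 H3K4me3 lists, 47293 bases or 9.05% of the clusters. HOXB held 15 of them and 37365 bases, HOXC 9 and 8855, HOXD 3 and 811, and HOXA 1 and 262. The widest were those over HOXB2 and the antisense RNA HOXB-AS1 (8407 bases), HOXB9 (7915) and HOXB4 with the microRNA gene MIR10A (6944). Of the 28, 7 held a canonical HOX start site and 21 did not, and 8 held no H3K27me3, all within HOXB. The single HOXA stretch (chr7:27161178-27161439) lay between HOXA7 and HOXA9, 4098 bases from the HOXA9 start, under 6 lists at most.

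Several of the stretches away from canonical starts reached all 8 lists. One in HOXC (chr12:54016979-54019220, 2242 bases) began 48 bases downstream of the upstream start of HOXC4. A second in HOXC (chr12:53994382-53996560, 2179 bases) held upstream starts of HOXC6 and HOXC9. In HOXB, a stretch of 2630 bases (chr17:48645294-48647923) lay 18936 bases upstream of HOXB9, beyond the gap and under H3K27me3, with no HOX or microRNA transcript start in it. All 28 lay under corrected H3K4me2 except 1 of 200 bases in HOXB.

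**Figure D4:**
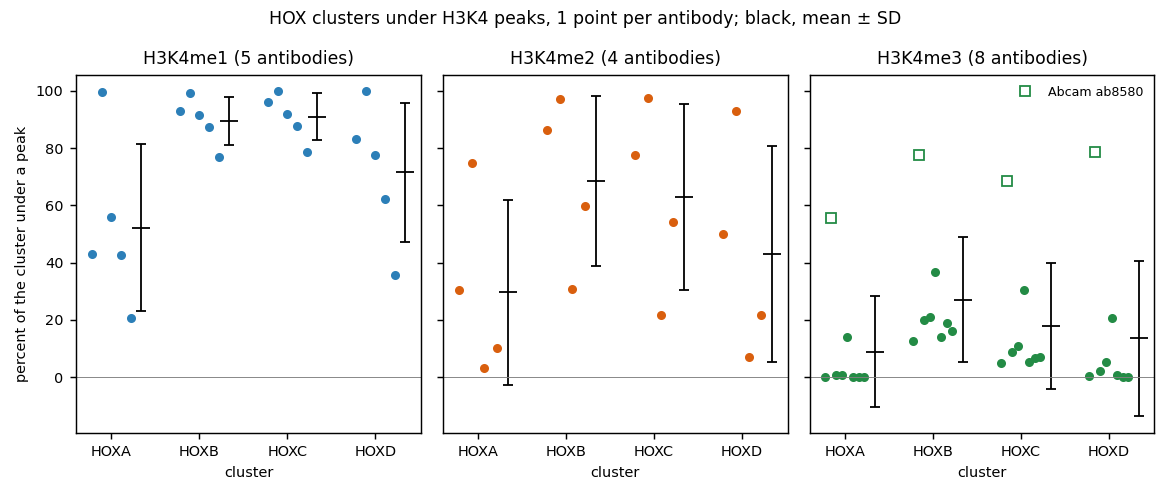
Percent of each cluster under a peak (vertical axis) for each antibody (points) in the 3 H3K4 groups, with mean ± SD in black and Abcam ab8580 as an open square. HOXA is lowest in 4 of 5, 4 of 4 and 7 of 8 lists, and the 8 H3K4me3 lists show HOXB highest in 7.

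The clusters as wholes kept the same order in most lists. H3K4me3 peaks covered 27.1% ± 21.7 of HOXB, 17.9% ± 22.1 of HOXC, 13.5% ± 27.2 of HOXD and 8.97% ± 19.4 of HOXA (SD, n = 8). Abcam ab8580 stood apart and covered 77.6%, 68.7%, 78.5% and 55.5% of the 4 clusters. Without it the means were 19.9% ± 8.05, 10.6% ± 8.96, 4.25% ± 7.50 and 2.32% ± 5.25 (SD, n = 7). HOXB was the highest of the 4 in 7 of 8 lists, the exception being Abcam ab8580, and HOXA the lowest in 7 of 8, the exception being EpiGentek A-4033-050, in which HOXD had none.

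H3K4me2 covered 68.6% ± 29.6 of HOXB, 62.8% ± 32.5 of HOXC, 43.0% ± 37.8 of HOXD and 29.6% ± 32.3 of HOXA (SD, n = 4), with HOXA lowest in 4 of 4 lists. H3K4me1 covered 90.9% ± 8.20 of HOXC, 89.6% ± 8.37 of HOXB, 71.6% ± 24.2 of HOXD and 52.3% ± 29.3 of HOXA (SD, n = 5), with HOXA lowest in 4 of 5 and HOXC highest in 5 of 5. The means of HOXB and HOXC differed by less than the SD of either for H3K4me1 and H3K4me2. Both clusters are read in the same lists, however, and the spread of the difference within a list was smaller. For H3K4me1, HOXB minus HOXC was -1.34 points ± 1.20 (SD, n = 5), with HOXB higher in 0 of 5 lists. The H3K4me2 difference was 5.72 points ± 4.37 (SD, n = 4), with HOXB higher in 3 of 4. For H3K4me3, HOXB was above HOXC in 8 of 8 lists, by 9.22 points ± 1.86 (SD, n = 8). Without Abcam ab8580 this was 9.26 points ± 2.01 (SD, n = 7), with HOXB higher in 7 of 7. No test was run on these sums over chosen genes.

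H3K4me1 and H3K4me3 were then compared at each promoter. The mean cover of the 5 H3K4me1 lists minus that of the 8 H3K4me3 lists was tested by exact two-sided permutation over antibodies for all 18234 coding genes with a peak in any of the 13 lists, with Benjamini-Hochberg adjustment over all of them. H3K4me1 was higher at an adjusted p of 0.05 or less for 23 of 39 HOX genes, against a background of 29.4% of genes tested, and H3K4me3 was higher for 1, HOXB4, against 12.5%. The median difference was 60.8 points over the HOX genes and 13.2 over all genes tested. HOXC10 had the widest difference, 98.0 points, with H3K4me1 over 100% in 5 of 5 lists and H3K4me3 over 1.97% on average (exact permutation, adjusted p = 0.0105). Of the 23, 4 were in HOXA (HOXA6, HOXA9, HOXA11, HOXA13), 5 in HOXB (HOXB1, HOXB3, HOXB5, HOXB8, HOXB13), 8 in HOXC (all but HOXC9) and 6 in HOXD (HOXD1, HOXD3, HOXD4, HOXD8, HOXD10, HOXD13).

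The genes that did not pass were of 2 kinds. HOXB2, HOXB6, HOXB7, HOXB9 and HOXC9 had high cover of both forms, with differences of -26.9 to 12.1 points. For 3 of them the sign depended on the stretch measured: over 2.5 kb on either side of the start H3K4me1 was higher by 40.3 points at HOXB7 and 44.4 at HOXC9, and over the gene body by 28.0 at HOXB9. The other 10, which were 7 HOXA genes with HOXD9, HOXD11 and HOXD12, had H3K4me1 that varied between antibodies, with differences of 5.92 to 64.2 points. With other settings the count over all genes moved with that of the HOX genes. In both directions together, 24 of 39 HOX genes and 41.9% of all genes tested were called. Scored as peak present or absent, 0 HOX genes and 0 of all 18234 genes tested passed, with a smallest adjusted p of 0.106 (exact permutation). Scored by whether a peak covered 0.5 of the window or more, 4 HOX genes and 3.20% of all genes passed. Over the gene body, 33 HOX genes and 84.0% of all genes passed. Input chromatin was assigned to antibodies by the sample number in their descriptions. Among the antibodies so assigned to 1 input chromatin, 11 HOX genes and 22.9% of all genes were called. Among libraries of 8 amplification cycles 0 HOX genes and 0 of all 18147 genes were called, with a smallest adjusted p of 0.0506 (exact permutation). The second input chromatin has no H3K4me1 list.

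Leaving out 1 antibody gave 11 to 30 called HOX genes, with 19.1% to 48.0% of all genes called. The 30, with 48.0%, were without Abcam ab8580. Of the H3K4me1 antibodies, it gave 12 without Abcam ab8895, 13 without Active Motif 39635, 11 without Cell Signaling Technologies 5326 BF and 11 without EpiGentek A-4031-050, with 19.9%, 29.2%, 19.1% and 21.0% of all genes. It gave 14 without any one of the H3K4me3 antibodies Abcam ab12209, Abclonal A2357, EMD Millipore 05-745R and Thermo Fisher PA5-40086, with 21.4% to 21.8% of all genes.

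**Figure D5:**
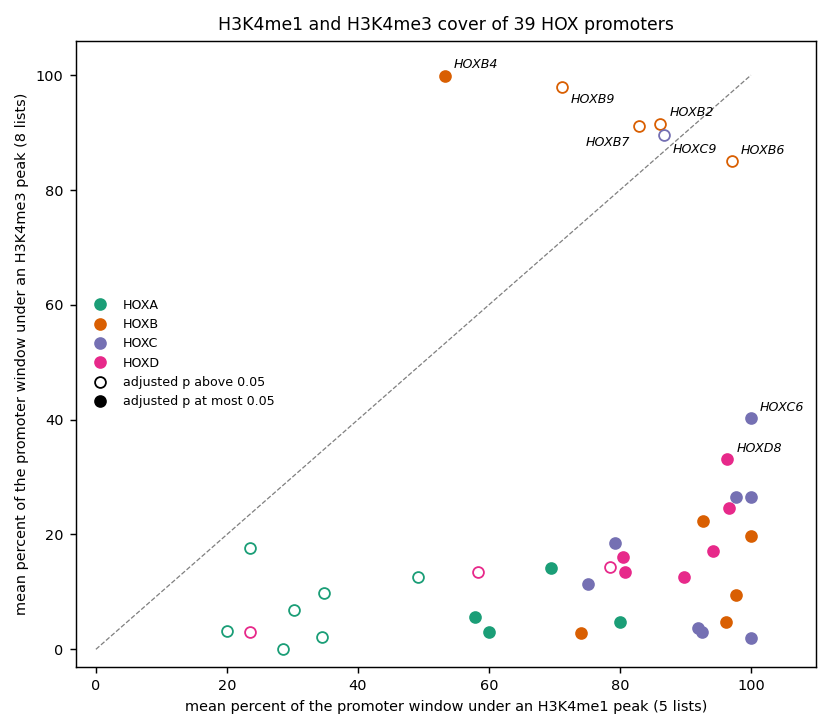
Mean percent of the promoter window under an H3K4me1 peak (horizontal, 5 lists) and an H3K4me3 peak (vertical, 8 lists) for the 39 HOX genes, coloured by cluster and filled where the adjusted p is 0.05 or less. HOXB2, HOXB4, HOXB6, HOXB7, HOXB9 and HOXC9 form the upper group. HOXB6 and the other 33 genes lie below the dashed line of equal cover.

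The other 2 pairs of forms gave no call. H3K4me1 minus H3K4me2 passed for 0 of 39 HOX genes and for 0% of 18297 genes tested, with 2 HOX genes and 2080 genes at an unadjusted p under 0.05 (exact permutation). H3K4me2 minus H3K4me3 passed for 0 of 39 and for 0% of 18065, with 9 HOX genes and 4993 genes at an unadjusted p under 0.05. The smallest p these group sizes allow is 0.0159 for the first pair and 0.00404 for the second, against 0.00155 for H3K4me1 and H3K4me3. H3K4me2 was higher than H3K4me3 on average at 39 of 39 HOX promoters, by a median of 24.0 points against 22.5 over all genes tested. At HOXB1 the means were 71.4% and 4.72%, and at HOXC10 74.0% and 1.97%.

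Non-coding genes inside the clusters share much of their windows with coding neighbours, such as HOXB-AS1 with HOXB2 and HOXC-AS1 with HOXC9, so they are no independent evidence. Of the 20 listed, 6 had peaks in at least 5 of 8 H3K4me3 lists: HOXB-AS1, HOXC-AS1, HOXC-AS2 and MIR10A in all 8, HOXB-AS3 in 6 and MIR196A1 in 5. HOTTIP, at the 5′ end of HOXA and known for recruiting methyltransferase complexes, had 1, and HOTAIR, an RNA of HOXC linked to Polycomb, had 2. H3K27me3 lay at 17 of the 20, HOXB-AS2, MIR10A and MIR196A1 being those without.

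The microRNA genes allow the chromatin of related sequences to be set side by side, since members of the miR-196 family arise from 3 clusters. The mature sequences below are from RefSeq (GRCh38.p14), 5′ to 3′, with the seed (bases 2 to 8) in capitals. The mature sequence of MIR10A lies at chr17:48579904-48579926, that of MIR196A1 at chr17:48632532-48632553, that of MIR196A2 at chr12:53991762-53991783 and that of MIR196B at chr7:27169528-27169549.
hsa-miR-10a-5p: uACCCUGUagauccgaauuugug
hsa-miR-196a-5p: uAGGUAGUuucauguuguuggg
hsa-miR-196b-5p: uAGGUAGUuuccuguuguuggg
MIR196A1 and MIR196A2 give the same mature miR-196a-5p, and miR-196b-5p shares its seed and differs at 1 position, A12C counted from the 5′ end of miR-196a-5p.

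Windows of the microRNA genes were centred on the 5′ end of the annotated microRNA gene, which is not shown to be a promoter. MIR10A, in the HOXB gap 1597 bases upstream of HOXB4, had mean H3K4me3 cover of 90.0% in its window and no H3K27me3. That window overlaps the HOXB4 promoter window and is no separate evidence. The HOXD counterpart MIR10B had 9.18% and H3K27me3 over 100%. MIR196A1, in HOXB, had H3K4me3 in 5 of 8 lists (mean 21.4%) and no H3K27me3. MIR196A2, in HOXC, had H3K4me3 in 2 lists (17.1%) and MIR196B, in HOXA, in 1 (10.2%), both under 100% H3K27me3. Corrected H3K4me2 covered 100% of the MIR10A and MIR196A1 windows, 91.3% of MIR196A2 and 6.15% of MIR196B. The 3 genes with the miR-196 seed thus lay under different sets of marks.

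Partners and upstream regulators of HOX proteins had promoter peaks in 0 to 8 H3K4me3 lists, as the HOX genes did. Of 15, 9 had peaks in at least 5 of 8 H3K4me3 lists, against 52.9% of coding genes, and 13 had an H3K27me3 peak, against 73.9%. Among them, PBX4, MEIS1, PKNOX1 and MEN1 had H3K4me3 in 8 of 8 lists, PBX2, PBX3 and MEIS2 in 6 and KMT2A in 5. CDX1, CDX2 and CDX4 had it in 0. MEIS1, the HOXA9 partner in leukaemia, had H3K4me3 over 99.6% of its promoter on average with H3K27me3 over 100%. PKNOX1 was the member of this list with H3K4me3 called higher than H3K4me1 (-29.6 points, exact permutation, adjusted p = 0.023), and MEN1, the menin gene, the one with a corrected H3K4me3 peak (53.7% of the window).

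At the borders of HOXA and HOXD, H3K4me3 differed from side to side. Beyond HOXA, SKAP2 had H3K4me3 in 8 of 8 lists and the homeobox gene EVX1 in 2. Beyond HOXD, MTX2 had it in 8 and EVX2 in 2. Both neighbours of HOXC, SMUG1 and CALCOCO1, had it in 8 of 8, and those of HOXB, SKAP1 and TTLL6, in 1 and 4. All 8 neighbours carried H3K27me3 over 100% of the promoter, the ones with H3K4me3 in 8 lists included, so that list does not separate them.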

How the data were processed

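The series holds 25 samples, and the 19 K562 immunoprecipitations with a peak list were used with 3 corrected lists. The other 6 samples (inputs and mouse cells) were not analysed here. Per the submitters' processing notes, reads were handled with Bowtie2, SAMtools, bedtools and MACS2 on GRCh38/hg38. No version of these tools, no calling setting and no definition of a high-confidence peak is given in the sources used here. The deposited lists give positions, and 17 of 22 also carry the authors' signal value per peak, of which 5 values exceed 100, on a scale not given in the sources used here. Read depth is unknown for the lists, so no counting interval was given, and the precision is the spread between antibodies.

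Start sites were the canonical ones of GENCODE release 44, after dropping 8 repeats of a symbol. A promoter was 1 kb on either side, a peak was present from 1 base of overlap, and cover was the percent of the window under a peak. Cover was compared between antibodies by exact permutation with Benjamini-Hochberg adjustment over all coding genes tested, and the code was checked on simulated data (Python 3.11.15, NumPy 2.4.6, SciPy 1.17.1, figures in Matplotlib 3.10.9). Values in full were given for the 2 HOX genes with the most and the 2 with the fewest of 17 lists in each cluster (ties by gene-body cover), those with a corrected H3K4me3 peak and those whose H3K27me3 state differed from the next gene. Genes singled out beyond these were named after their values were seen, as were the stretches under at least 5 H3K4me3 lists. The members, lists and rules were chosen with earlier results of these data known. Alternatives varied the window, the start site, the gene body, the overlap needed, the value of peaks, the input chromatin, the amplification cycles and each antibody. The libraries share chromatin of 1 cell line, and no label pairs them across targets. Some listed genes are not reported here by name.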

Additional observations from a re-analysis of the deposited data

Results flagged for a closer look

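Of 15 groups of 4 to 8 antibody lists examined for a value far from the rest, 4 had one. All 4 are the same list, read over the 4 clusters. The groups share libraries, so these are not 4 separate events and no chance rate is set beside them. In the 8 H3K4me3 lists, Abcam ab8580 covered 55.5% of HOXA, where the next highest, EMD Millipore 07-473, covered 14.2%. It covered 77.6% of HOXB, where the next was 36.7%, 68.7% of HOXC, where the next was 30.4%, and 78.5% of HOXD, where the next was 20.8%. Its cover of the whole genome, 769 Mb against 18.7 to 165 Mb in the other 7, moved with these values, and its part in them was not tested.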

How the results depend on the processing

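The 24 HOX genes called for H3K4me1 against H3K4me3 became 0 when a promoter was scored as peak present or absent, 4 when scored by whether a peak covered 0.5 of the window or more, 11 with lists of 1 input chromatin and 0 with libraries of 8 cycles, where 0%, 3.20%, 22.9% and 0% of all genes tested were called against 41.9%. Over the gene body 33 HOX genes and 84.0% of all genes were called. Leaving out 1 antibody gave 11 to 30, with 19.1% to 48.0% of all genes. With fewer antibodies the smallest p is larger. Corrected H3K4me2 promoters went from 17 to 26 with a window of 2.5 kb (61.1% of coding promoters). Corrected H3K4me3 promoters went from 5 to 12 with 2.5 kb, to 1 with 0.5 kb and to 1 when 0.5 of the window was needed. The sign of H3K4me1 minus H3K4me3 turned to a called positive difference at HOXB7 (40.3 points with 2.5 kb, 84.0 from the most 5′ annotated start, 45.8 over the gene body), at HOXC9 (44.4 with 2.5 kb, 41.3 over the gene body) and at HOXB9 (28.0 over the gene body). Of the other alternatives for single genes, 2302 stayed on the same side of the threshold (49 of these 2302 changed sign with no call before or after), 195 lost a call and 27 gained one. All 96 alternative cluster means stayed within 1 SD. This bound is wide, since for H3K4me3 the SD over antibodies exceeds the mean of HOXA, HOXC and HOXD. Without Abcam ab8580 the H3K4me3 mean fell in all 4 clusters, from 8.97% to 2.32% in HOXA and from 13.5% to 4.25% in HOXD. No paired analysis was possible because the antibodies of different targets share no replicate number that marks a common culture or batch. Depth is unknown, and the H3K27me3 and corrected lists have no replicate.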
